A study of Sus scrofa with 2 samples.

Results

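MHC class I molecules display fragments of a cell's own proteins at its surface, where cytotoxic T cells and natural killer cells read them. Each molecule is a heavy chain paired with beta-2-microglobulin. Its peptides are cut by the proteasome, pumped into the endoplasmic reticulum by the TAP1 and TAP2 transporter and fitted into the heavy chain with the help of tapasin, the product of TAPBP. Interferons raise the transcription of most of these genes and switch the proteasome to the immuno-subunits encoded by PSMB8, PSMB9 and PSMB10. Nucleated somatic cells, granulosa cells of the ovarian follicle included, make class I at some level. The pig versions of the heavy chains carry the prefix SLA, for swine leukocyte antigen.

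The genes described here are 10 of the 34570 listed in the deposited tables: SLA-1, SLA-3, SLA-5, B2M, TAP1, TAP2, TAPBP, PSMB8, PSMB9 and PSMB10. They were selected on their values in these same libraries, after several had been seen higher with SMAD4 siRNA, so the ratios below describe the libraries and support nothing beyond them. Of the 10 genes, 9 were above 0 in both libraries and passed the minimum on the mean value, and PSMB10 was listed at 0 in both.

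The libraries came from porcine follicular granulosa cells of female Chinese Erhualian pigs, with ovary as the labelled tissue. Cells of one group received NC-siRNA, a negative control, and those of the other SMAD4-siRNA, directed at the mediator shared by TGF-beta, activin and BMP signals. Each library was made from total RNA of 3 individuals mixed in equal parts, and the labels give neither the age of the animals, the time after transfection, nor whether both groups used the same animals. There was 1 library per group, so no difference has a replicate check, and siRNA and animals cannot be told apart. SMAD4 was at 85.0 with control siRNA and 47.9 with SMAD4 siRNA, a ratio of 0.563 (0.497 to 0.639).

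Values are upper-quartile scaled RPKM, a read density per base of gene, and can therefore be compared between genes of 1 library. Ratios are SMAD4 siRNA over control siRNA. The bounds given with a ratio are those of a 95% Clopper-Pearson interval from the reads behind it, which covers counting error alone. The libraries held at least 17680952 reads (control) and 17394711 reads (SMAD4 siRNA) on genes. Reads given for a gene are the smallest whole numbers that its values allow, so the true numbers may be several times higher. Dividing each library by its summed value would multiply every ratio by 1.09, a shift of 0.12 on the log2 scale, and no gene among the 9 would change side, whereas any gene between 0.921 and 1 would move above 1.

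Among the 8 of the 9 genes backed by over 1000 reads, the heavy chains had the highest ratios. SLA-1, a classical heavy chain, was at 4957 with control siRNA and at 14053 with SMAD4 siRNA. Its ratio was 2.83 (2.76 to 2.91), on at least 6997 and 21842 reads. SLA-3, the second classical heavy chain analysed here, was at 4214 and 10923, a ratio of 2.59 (2.52 to 2.67). SLA-5, a heavy chain gene that lies next to SLA-1 in the Sscrofa11.1 reference table, was the least abundant of the 3, with 1344 and 4389, and had the highest ratio, 3.27 (3.09 to 3.45).

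These heavy chain genes are near-identical in sequence, and how their shared reads were assigned is not given in the labels or tables. If no shared read was dropped or counted for several genes, their sum depends little on how reads were split among the 3. Whether that holds, and whether reads passed to or from other SLA genes, was not tested. Summed, the heavy chain value was 10515 with control siRNA and 29365 with SMAD4 siRNA, a ratio of 2.79. The make-up of that sum was similar in both libraries. SLA-1 held 47.1% of it with control siRNA and 47.9% with SMAD4 siRNA, SLA-3 held 40.1% and 37.2%, and SLA-5 held 12.8% and 14.9%. Relative to SLA-1, SLA-5 stood at 27.1% (25.7 to 28.6) and 31.2% (30.3 to 32.1). Those intervals do not overlap, but they take no account of how reads were shared.

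B2M encodes the light chain that all class I heavy chains need to fold and reach the surface. It was the most abundant of the 9 genes in both libraries, at 24855 with control siRNA and 55801 with SMAD4 siRNA. That placed it 84th by value among all genes with control siRNA and 23rd with SMAD4 siRNA. Its ratio was 2.25 (2.18 to 2.32), below the interval of each heavy chain. The reference table names 2 B2M genes and the deposited tables list 1 entry, so reads of both may be joined or one of them missed. B2M stood at 2.36 times the summed heavy chains with control siRNA and at 1.90 times with SMAD4 siRNA.

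**Figure D1:**
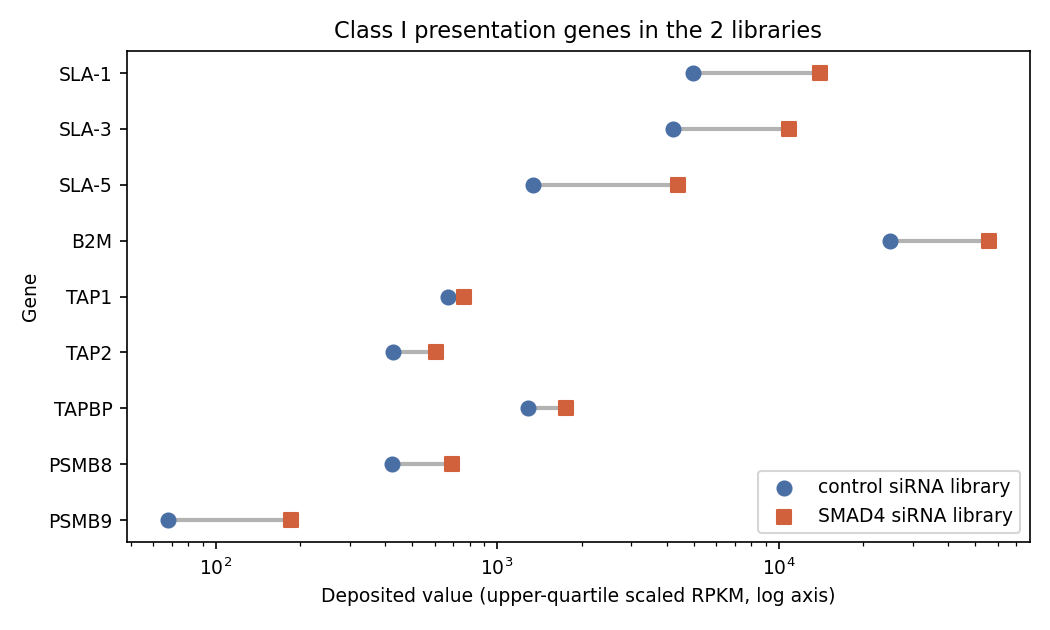
Deposited value of each class I presentation gene above 0 (horizontal log axis, upper-quartile scaled RPKM) in the control siRNA library (circles) and the SMAD4 siRNA library (squares), 1 library per group. All 9 genes lie further right in the SMAD4 siRNA library; the lines are long for SLA-1, SLA-3, SLA-5, B2M and PSMB9 and short for TAP1, at 669 and 761.

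The transport and loading genes differed far less than the chains they serve. TAP1, one chain of the peptide pump, was at 669 with control siRNA and 761 with SMAD4 siRNA, a ratio of 1.14 (1.07 to 1.21). This was the smallest ratio of the 9 genes, and 11.6% of all genes with at least 1000 reads had one at least as high. TAP2, the second chain of the pump, was at 426 and 606, a ratio of 1.42 (1.28 to 1.58). The counting intervals of the 2 transporter genes do not overlap. TAP1 stood at 1.57 (1.43 to 1.73) times TAP2 with control siRNA and at 1.26 (1.16 to 1.36) times TAP2 with SMAD4 siRNA.

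TAPBP encodes tapasin, which holds empty class I molecules next to the transporter. Its value was 1289 with control siRNA and 1760 with SMAD4 siRNA, a ratio of 1.37 (1.31 to 1.43). The summed heavy chains were 8.16 times TAPBP with control siRNA and 16.7 times TAPBP with SMAD4 siRNA. None of the 3 transport and loading genes reached 2-fold.

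The immunoproteasome genes lay below the heavy chains and B2M, with PSMB8 close to TAP2 and PSMB9 below all other genes of the 9. By value among all genes, PSMB8 ranked 3296th with control siRNA and 2192nd with SMAD4 siRNA, and PSMB9 7939th and 5136th. PSMB8, whose product replaces the standard catalytic subunit PSMB5, was at 425 with control siRNA and 689 with SMAD4 siRNA, a ratio of 1.62 (1.48 to 1.79). PSMB9, which replaces PSMB6, was at 67.8 and 186, a ratio of 2.74 (2.0 to 3.8) on 54 and 163 reads. It has the fewest reads of the 9 genes and the widest interval. PSMB10, which replaces PSMB7, was listed at 0 in both libraries. PSMB1 and PSMB3, subunits that every proteasome carries, were listed at 0 too, so a listed 0 says nothing of expression here.

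The standard subunits were read beside their replacements. PSMB5 was at 2590 and 2908, a ratio of 1.12 (1.07 to 1.18). PSMB6 had a ratio of 1.27 (1.21 to 1.34) and PSMB7 one of 1.16 (1.11 to 1.22). PSMB8 thus stood at 16.4% (15.1 to 17.8) of PSMB5 with control siRNA and 23.7% (22.2 to 25.3) with SMAD4 siRNA. PSMB9 stood at 2.06% (1.54 to 2.70) of PSMB6 with control siRNA and at 4.45% (3.78 to 5.21) with SMAD4 siRNA. In both libraries the standard subunits were the more abundant by several fold.

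**Figure D2:**
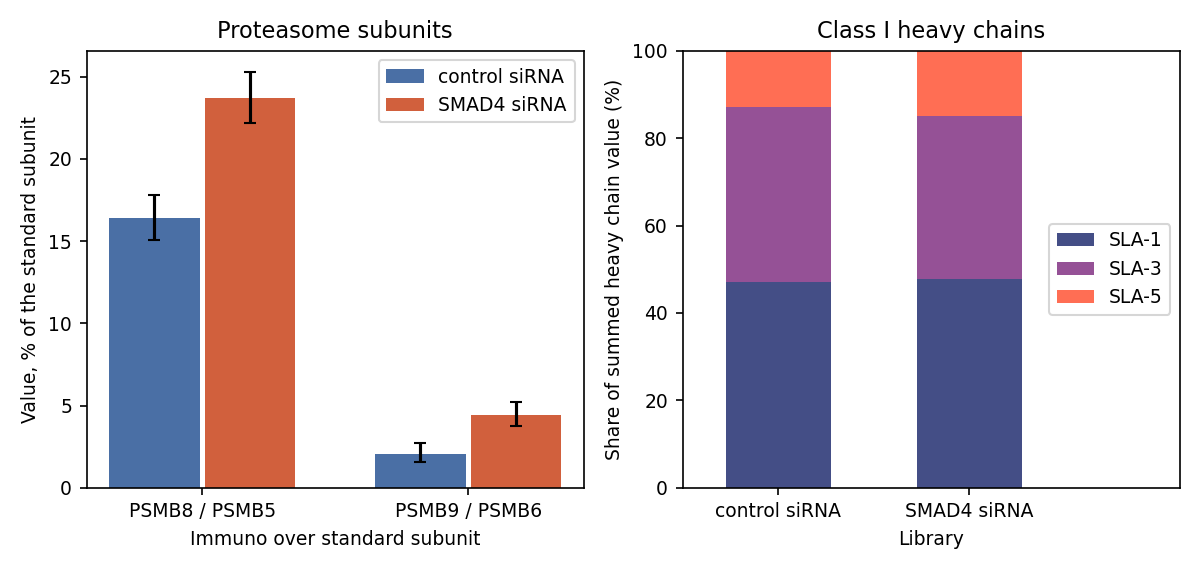
Left, value of each immunoproteasome subunit as a percentage of the standard subunit it replaces, in the control siRNA and SMAD4 siRNA libraries, with 95% counting intervals; PSMB8 stood at 16.4% and 23.7% of PSMB5, and PSMB9 at 2.06% and 4.45% of PSMB6. Right, share of the summed heavy chain value held by SLA-1, SLA-3 and SLA-5 in each library; SLA-1 held 47.1% and 47.9%.

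TAP2, PSMB8, TAP1 and PSMB9 follow one another in that order on chromosome 7 in the Sscrofa11.1 reference table, and TAP1 and PSMB9 are known to share a promoter region in mammals. Their ratios along that order were 1.42, 1.62, 1.14 and 2.74. The intervals of the neighbours TAP1 and PSMB9 do not overlap. TAP1 was 9.86 (7.52 to 13.2) times PSMB9 with control siRNA and 4.10 (3.49 to 4.83) times PSMB9 with SMAD4 siRNA.

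Counted over the 9 genes, 5 were higher by at least 2-fold on the scale of log2(value + 1) and 0 were lower by as much. Of all 16609 genes that passed the minimum, a mean value of 1, the share higher by 2-fold or more was 7.17% and the share lower by as much 6.68%. Among the 9664 of them with at least 100 reads, as all 9 genes have, 1.32% were higher and 1.12% lower. The genes were chosen on this contrast, so nothing is read from the count. Their median log2 ratio was 1.17, against -0.05 for all genes measured. With the 3 heavy chains summed and counted as 1 gene, 3 of 7 were higher by at least 2-fold and the median log2 ratio was 0.70. In the smallest whole reads, whose shortfall is unknown for each gene, so that the true share may lie on either side, the 9 together held 0.153% of the reads on genes with control siRNA and 0.40% with SMAD4 siRNA.

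Outside the selected genes, the other heavy chain loci were also higher, by less. SLA-6, SLA-7 and SLA-8 are non-classical class I genes. SLA-7 was at 585 and 1142, a ratio of 1.95 (1.81 to 2.11). SLA-6 was at 1657 and 2202, a ratio of 1.33 (1.26 to 1.40), and SLA-8 at 694 and 821, a ratio of 1.18 (1.08 to 1.30). SLA-11, a class I pseudogene that the tables list as non-coding, had a ratio of 1.57 (1.51 to 1.64). The summed value of SLA-6, SLA-7 and SLA-8 was 27.9% of the summed SLA-1, SLA-3 and SLA-5 with control siRNA and 14.2% with SMAD4 siRNA. Over all 6 coding heavy chains the summed ratio was 2.49. SLA-2, the remaining classical heavy chain, had no entry under that name, and any of its reads may have been assigned to the others.

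The class I-like genes lay on both sides of 1. FCGRT, the heavy chain of the neonatal Fc receptor, also pairs with beta-2-microglobulin. It was at 4287 with control siRNA and 3004 with SMAD4 siRNA, a ratio of 0.701 (0.673 to 0.729). MIC-1, a stress ligand locus listed as non-coding, had a ratio of 1.08 (0.722 to 1.62). PROCR, the endothelial protein C receptor, had 0.594 (0.302 to 1.14) on at least 26 and 17 reads, while AZGP1 had at least 3 reads in each library. CD1D, which presents lipids, had at least 1 read in the control library and 0 in the other. Of the 15 genes listed as other class I and class I-like, 8 passed the minimum, 0 of them past 2-fold in either direction, with a median log2 ratio of 0.18.

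The proteasome activators split by kind. PSME1 and PSME2 encode the interferon-inducible cap that opens the proteasome for peptide release. PSME1 was at 5745 and 8218, a ratio of 1.43 (1.36 to 1.5), and PSME2 at 3873 and 7117, a ratio of 1.84 (1.76 to 1.92). The nuclear activator gene PSME3 had a ratio of 0.966 (0.857 to 1.09) and PSME4 one of 1.02 (0.903 to 1.16). POMP, the chaperone that assembles new proteasomes, had 1.08 (0.838 to 1.40). Among the 8 other core subunits measured, ratios ran from 0.972 (PSMA4) to 1.31 (PSMB4), with PSMA1 at 1.30, PSMA6 at 1.28, PSMA5 at 1.21 and PSMA2 at 1.07. Of these 8, 7 were above a ratio of 1 and 1 below it. Their median log2 ratio was 0.32, against -0.05 for all genes measured. The median was 0.22 for the standard catalytic subunits and 0.11 for the activator list. All 16 of these activator, standard and core genes lay within 2-fold.

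**Figure D3:**
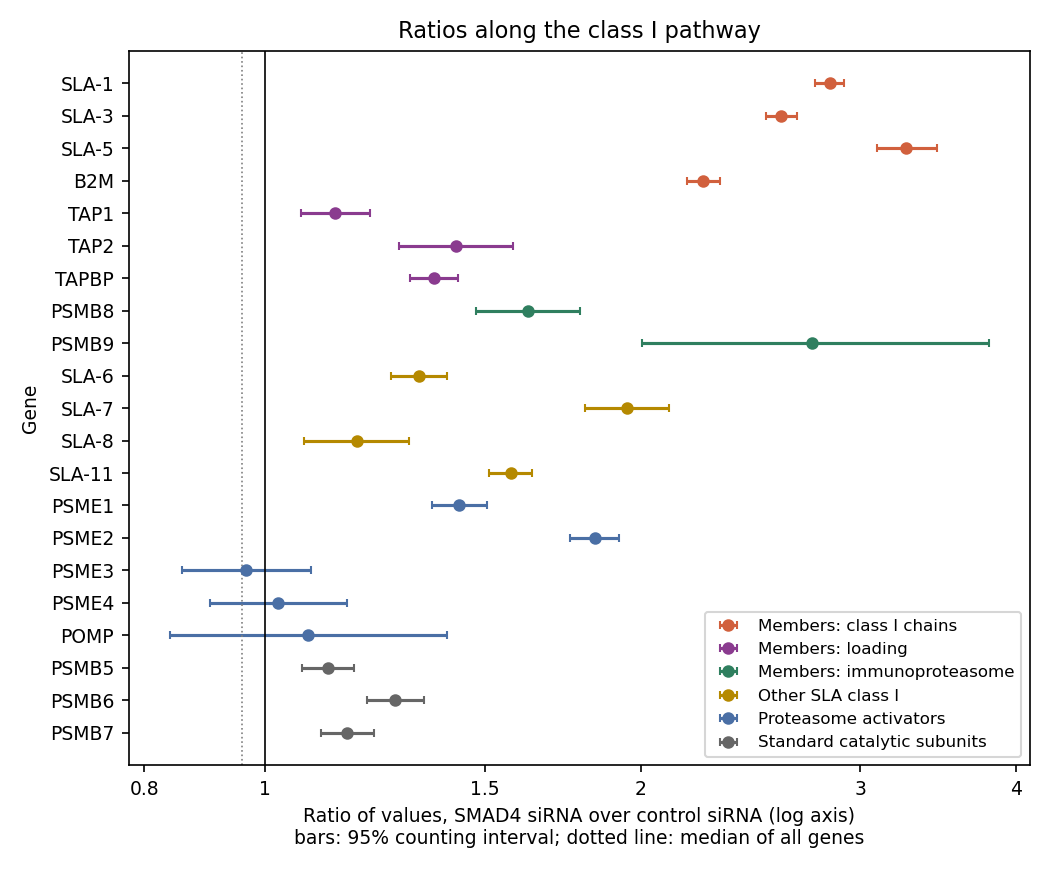
Ratio of values, SMAD4 siRNA over control siRNA (horizontal log axis), for the class I presentation genes, other SLA class I loci, proteasome activators and standard catalytic subunits; bars are 95% counting intervals, the solid line marks 1 and the dotted line the median ratio of all genes measured, 0.959. SLA-1, SLA-3, SLA-5, B2M and PSMB9 lie beyond 2, PSME2 and SLA-7 just below it, and PSME3 and PSME4 at about 1.

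Folding and trimming factors of the endoplasmic reticulum, which serve many proteins beside class I, showed no common direction. Of 16 measured, 7 were above a ratio of 1 and 9 below it, with a median log2 ratio of -0.02 and 0 past 2-fold. After dividing each library by its sum, 6 were below 1. PDIA3, the thiol oxidoreductase of the loading complex, had a ratio of 0.822 (0.796 to 0.848), and SEC61A1, the pore of the translocon, had 0.872 (0.830 to 0.917). UGGT1, the folding sensor that returns glycoproteins to the chaperones, had 0.642 (0.533 to 0.772). At the other end were GANAB, a glucosidase subunit, at 1.16 (1.13 to 1.20), LNPEP, an aminopeptidase, at 1.16 (0.693 to 1.95), and ERAP2, which trims peptides to class I length, at 1.78 (1.10 to 2.95) on 27 and 53 reads. The list of cytosolic peptidases had a median log2 ratio of -0.20 over 6 measured genes, 0 past 2-fold. It also held TPP1, a lysosomal peptidase, at 0.733 (0.709 to 0.758), without which the median was -0.16 over 5. These ran from NPEPPS at 0.807 through TPP2 at 0.848, BLMH at 0.896 and LAP3 at 1.0 to THOP1 at 1.11.

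The listed transcription factors of class I promoters had a median close to that of all genes. Of 13 measured, 3 were above a ratio of 1 and 10 below it, or 6 below it after dividing each library by its sum, with a median log2 ratio of -0.08. IRF1, which binds the interferon response element of class I genes, was at 694 and 703, a ratio of 1.01 (0.938 to 1.09). RFX5, of the complex that binds the class I and class II X box, had 1.17 (0.965 to 1.42), and NFYC, of the CCAAT-binding complex, had 1.27 (1.15 to 1.41). Its partner NFYA was at 19.3 and 6.03, a ratio of 0.313 (0.181 to 0.521) on 61 and 21 reads, and was the 1 gene past 2-fold. Of all genes measured, 6.68% were lower by as much. NFKB1 had 0.763 (0.631 to 0.922) and ATF1 0.706 (0.325 to 1.5). NLRC5, the class I transactivator, and RFXANK were listed at 0 in both libraries, which says nothing of their expression. IRF7 was not on this list and is given with the interferon-induced genes below.

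Class II genes, whose products present peptides from outside the cell, had low values in both libraries. Of 12 listed, 7 passed the minimum, 1 of them higher (CTSS) and 1 lower (SLA-DQA1) by at least 2-fold. Of all genes measured, 7.17% were higher and 6.68% lower by as much. The list had a median log2 ratio of -0.02 that turned to 0.10 after dividing each library by its sum. SLA-DRA had 23 and 25 reads and a ratio of 0.987 (0.538 to 1.82). The chain gene SLA-DRB1 had 0.807 (0.446 to 1.45). SLA-DMA, one chain of the exchange factor that loads class II, had 0.965 (0.458 to 2.04), and SLA-DMB, its partner, had 1.09 (0.721 to 1.64). SLA-DQB1 had 1.82 (1.08 to 3.14) on 23 and 46 reads, and SLA-DQA1 had 0.259 (0.0263 to 1.36) on 7 and 2 reads. CTSS, the protease cathepsin S, had 2.42 (1.38 to 4.42) on 18 and 48 reads. SLA-DOA, SLA-DOB and CIITA, the class II transactivator, were below the minimum, and their smallest whole reads came to at most 3 over both libraries.

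Genes listed as neighbours in the MHC region, outside the presentation genes above, lay mostly slightly above 1. Of 31 measured, 23 were above a ratio of 1 and 8 below it, or 28 and 3 after dividing each library by its sum. None was past 2-fold in either direction, and the median log2 ratio was 0.09, against -0.05 for all genes measured. The highest ratios were those of KIFC1, a mitotic kinesin, at 1.73 (1.26 to 2.40), GNL1 at 1.58 (1.45 to 1.73) and IER3, an immediate early gene, at 1.47 (1.31 to 1.64). The lowest were those of VPS52, a vesicle tethering subunit, at 0.848 (0.792 to 0.908), HSD17B8 at 0.878 (0.752 to 1.03) and DDX39B, an RNA helicase, at 0.913 (0.874 to 0.954). RGL2 and ZBTB22, the reference neighbours of TAPBP on either side, had ratios of 1.10 and 1.17.

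**Figure D4:**
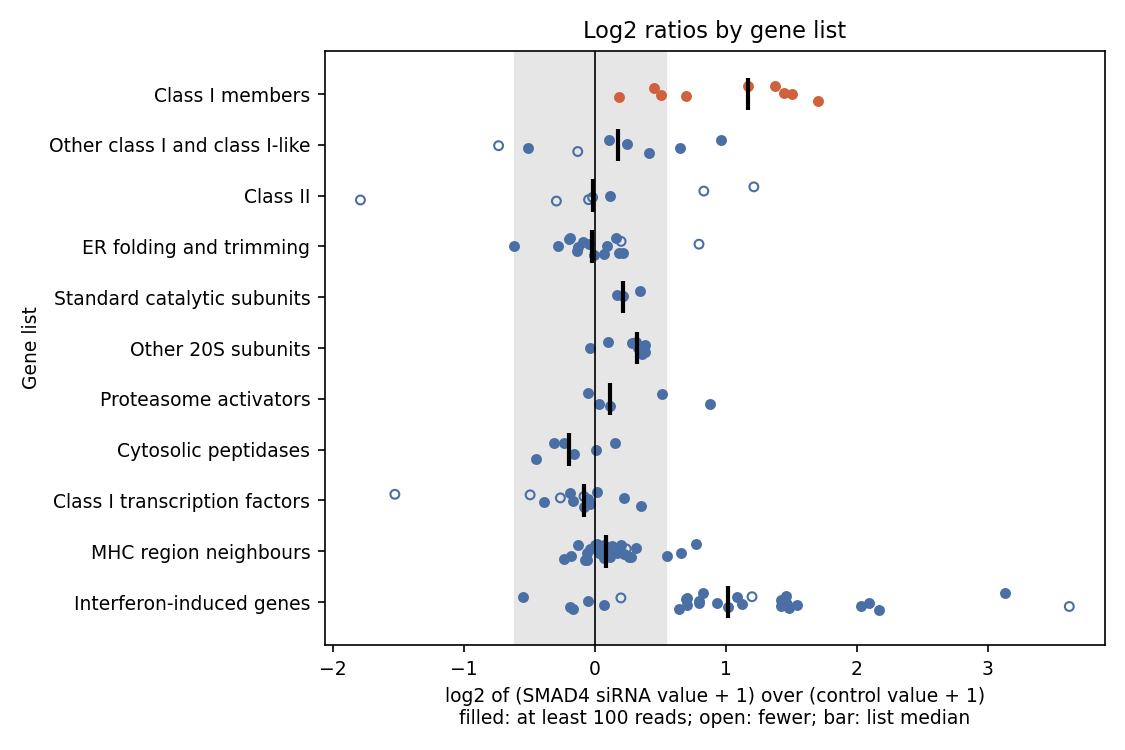
Log2 ratio of each measured gene by list, on the scale of value + 1; filled points have at least 100 reads over both libraries, open points fewer, black bars are list medians, and the grey band spans the 5th to 95th percentile of all genes with at least 100 reads (-0.61 to 0.55). The class I genes spread from 0.19 (TAP1) to 1.71 (SLA-5) around a median of 1.17, next to 1.02 for interferon-induced genes and 0.09 for genes of the MHC region.

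The list of interferon-induced genes had the median closest to that of the 9 among these lists. This rests on the 3 near-identical heavy chains counted as separate genes. Without them the median was 0.60, nearer to the 0.32 of the other core proteasome subunits. Of 29 interferon-induced genes measured, 15 were higher by at least 2-fold and 0 lower, with a median log2 ratio of 1.02. The share higher by as much was 7.17% of all genes measured, or 1.32% of those with at least 100 reads. The list was drawn up with earlier results of these data known, so its count and median are description only. IRF9 and STAT2 are also counted among the transcription factors above, and without them the median was 1.09 over 27. OASL had a ratio of 15.7 (5.85 to 59.1) on 4 and 69 reads, OAS1 one of 8.92 (6.26 to 13.1) and IFIT1 one of 4.76 (3.09 to 7.62). Each of these lies above the highest ratio of the 9 presentation genes, 3.27 for SLA-5, though the interval of IFIT1 overlaps that of SLA-5. At the low end were STAT2 at 0.875 (0.807 to 0.948), IRF9 at 0.889 (0.836 to 0.946), both parts of the interferon-activated transcription complex, and SAMHD1 at 0.677 (0.511 to 0.896). The 5 named genes with at least 1000 reads whose log2 ratio of plain values was nearest to the median of the 9 were SLC15A3, a lysosomal peptide transporter (2.24), AGRN (2.27), IRF7 (2.18), IFITM3 (2.32) and FAM198B (2.37). With 2 libraries such likeness is 1 difference per gene and says nothing of a shared control.

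Leukocytes carry far more class I than most cells, so their markers are given beside these ratios. Of 18 leukocyte markers, 10 passed the minimum, 2 of them above a ratio of 1 and 8 below it. After dividing each library by its sum, 4 were above 1 and 6 below it. Their summed value was 1307 with control siRNA and 1236 with SMAD4 siRNA, most of it from CD14 (579 and 566) and S100A8 (504 and 497). CD79A had 17 and 5 reads, LCP1 a ratio of 0.707, S100A9 one of 0.795 and TYROBP one of 0.881. The 2 above a ratio of 1 were ITGAM at 2.04 on 4 and 9 reads and CD4 at 2.72 on 1 and 3 reads. PTPRC, the pan-leukocyte antigen CD45, had 1 and 2 reads, and CD3E, CD163, MS4A1 and CORO1A were listed at 0 in both. Of 8 endothelial markers, 5 were measured, 2 above a ratio of 1 and 3 below it, and their summed value was 446 and 343. PECAM1 was at a ratio of 0.875 and ERG at 0.582, KDR at 2.36 on 5 and 13 reads and ESAM at 1.82 on 2 and 4 reads, and TEK and TIE1 were listed at 0. Theca and stroma markers had a summed value of 722297 and 482082, most of it ACTA2, and a median log2 ratio of -0.35 over 8 measured, from LUM at 0.583, ACTA2 at 0.622 and DCN at 0.743 to PDGFRA at 0.877, PDGFRB at 0.918 and COL1A1 at 1.06, with CYP17A1 and INSL3 listed at 0. In bulk RNA, fewer cells of a type and less RNA per cell cannot be told apart.

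Of 14 granulosa markers set beside the label, 10 were measured. FOXL2, the granulosa identity factor, was at 132 and 146, a ratio of 1.11 (0.874 to 1.40), and GATA4 was at 748 and 774. HSD3B1, which makes progesterone, was at 12334 and 23378, a ratio of 1.90 (1.85 to 1.94). INHA had a ratio of 0.848, NR5A1 of 0.849 and NR5A2 of 0.941, while HSD17B1 (8 and 17 reads) and STAR (6 and 15 reads) rest on few reads. FSHR, the receptor for follicle-stimulating hormone, had 9 and 7 reads, and CYP19A1, CYP11A1, AMH and INHBB were listed at 0 in both libraries. By value among all genes with control siRNA, HSD3B1 ranked 163rd, FOXL2 6206th and ACTA2, listed among the theca and stroma markers, 1st. How far the granulosa label holds was not tested, nor was the part of cell makeup in the class I ratios.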

How the data were processed

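Per the file names, the authors deposited RPKM values scaled by an upper quartile, 1 table per library; the library kit and pooling are per the labels' protocols (Ion Total RNA-Seq Kit), and the aligner, counter, genome build and annotation are not given in the labels or tables. Values were used as deposited. The presentation genes and the gene lists were chosen with earlier results of these data known.

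Reads were taken from the values. With a divisor of 890 (control) and 980 (SMAD4 siRNA), whose quotient is the commonest ratio between the libraries, all 18428 genes above 0 gave whole reads at a whole length of up to 40000 bases (relative tolerance 2e-09, absolute 1e-06). The smallest such numbers were used, so reads are lower bounds. B2M gave a smallest length of 257 bases, which may be a fraction of its true length, and its interval is then too wide. Intervals cover counting error only, since PCR copies cannot be told from separate molecules here.

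The measure for counts and medians was log2(value + 1), which understates the change of low genes, with a minimum of 1 on the mean value of a gene. For single genes the plain ratio is printed. There is no test, with 1 library per group. Entries listed by number (LOC) took names from the RefSeq table of Sscrofa11.1, 2090 of 19902, among them PSMB5, ERAP2, IRF9 and POMP; of repeated names the entry with most reads was used. Named genes were all presentation genes, SMAD4, the measured genes of 4 lists (standard subunits, activators, other class I, class II), up to 3 at each end of other lists with at least 20 reads, and the 5 nearest in ratio; further genes, such as RGL2, ZBTB22, GATA4, KDR, ESAM and those listed at 0, were named after their values were seen. Alternatives were other pseudocounts, minimums and thresholds, rescaling to a common sum, centring (median, or mean after trimming 30% at each end), and summing the heavy chains; leaving out the heavy chains, TPP1, or IRF9 and STAT2 was chosen after seeing the data. Promoter and protein sequences were not analysed here. One listed gene is not reported here. On simulated data for the 18428 genes of this comparison, 100% of genes with reads gave whole reads. In the same simulated data, 95.5% of the true ratios of genes with at least 100 reads lay in their interval. How far either figure holds for the deposited values and the intervals printed here was not tested. Python 3.11.15, numpy 2.4.6, pandas 2.3.3 and scipy 1.17.1 were used.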

Additional observations from a re-analysis of the deposited data

How the results depend on the processing

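The 9 presentation genes were chosen on this contrast and all had ratios above 1, so the sign of their median could hardly turn. Their median log2 ratio, 1.17, stayed above 0 under all 9 alternatives. It was 1.28 after rescaling both libraries to 1 common sum, 1.21 centred on the median of all genes, 0.70 with the heavy chains summed as 1 gene, 1.0 as a mean, and 0.60 without the 3 heavy chains, an alternative chosen after seeing the data. The first 2 shift all genes alike, and the last 3 follow from which genes enter and how they are averaged. Of the 9 genes, 5 were higher by at least 2-fold, against 3 with the heavy chains summed and 0 at 4-fold. The other 8 alternatives gave 5, or 6 at 1.5-fold. Rescaling moved each of the 9 single ratios up by 0.12 on the log2 scale and turned none. Over the other pathway lists, 16 genes were higher by at least 2-fold, 15 of them in the interferon-induced list and 1 in the class II list. The number was 15 with a pseudocount of 5 and 13 with at least 100 reads. Of all genes measured, 7.17% were higher by as much, or 1.32% of those with at least 100 reads. The class II median changed sign, from -0.02 to 0.12, with at least 100 reads, where SLA-DMB alone remains. No paired analysis was possible because there is 1 library per group, and leaving out a replicate was not possible either. Among the 9 genes, PSMB9 has the fewest reads, 217, and several genes of the other lists have fewer. Centring, rescaling and pseudocounts do not touch how reads were shared among SLA genes, which was not tested.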
